A study of Homo sapiens with 4 samples.

Results

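The sites described here are the places inside coding sequences (CDS) of mRNAs where the RNA-binding fragment of PRRC2B was crosslinked to RNA in HEK293T cells, a human embryonic kidney line. They were taken from the list of binding sites of that fragment (labelled RBD) as the records on protein-coding genes whose region is given as CDS and nothing else, with 1 site per distinct position and strand. This left 168 sites on 129 genes, out of 571 distinct sites in the RBD list and 1465 in both lists of the study. PRRC2B itself held 29 of the 168 sites, and its mRNA is also the message from which the expressed protein is made, so results are given with and without it. Each site was marked by whether it overlapped a site of the full-length protein (labelled FL) by 1 nt or more on its own strand.

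The study compared FLAG-tagged full-length PRRC2B with its fragment P2, the part of the protein after residue 750 and up to residue 1500. Both were overexpressed in HEK293T cells from a pcDNA3.1 plasmid, and the cells kept their own PRRC2B gene. Cells of both groups received 4-thiouridine (4sU) for 16 h, were exposed to ultraviolet light of 312 nm and were lysed with RNase T1, after which the tagged protein was immunoprecipitated with anti-DYKDDDDK beads and RNA pieces of 19 to 35 nt were sequenced. Each construct had 2 biological replicates, which makes 4 samples, and the replicates of a construct were merged into a single list, so no value below has a replicate error and no test over samples was possible.

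PRRC2B is a large proline-rich protein with arginine- and glycine-rich stretches, a kind of sequence found in many RNA-binding proteins, and it belongs to a family with PRRC2A and PRRC2C. In PAR-CLIP a protein that touches a 4sU base becomes linked to it, and the linked base is read as C in place of T, which marks the point of contact. A protein bound within a coding sequence sits on the stretch that ribosomes travel over, unlike a protein bound in an untranslated region (UTR).

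The sequences that the results turn on fell into 2 kinds. The first kind holds runs of alternating C and U, searched for as CUCU or UCUC, and the second holds runs of G and A, searched for as GAAG or AAGA. These pyrimidine and purine 4-mers were read on the strand of the site only. CUCU and UCUC overlap each other in a longer run, as do GAAG and AAGA, so each pair was counted as 1 class. The middle 41 nt of sites are printed 5′ to 3′ from hg38, with matches to any of these 4-mers in capitals and with the strand given after the coordinates. The tallest sites outside PRRC2B that overlapped an FL site are shown first, because they are the highest peaks found with both proteins.
NCL, chr2:231460710-231460750, minus: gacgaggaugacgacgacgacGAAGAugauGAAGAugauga
NCL, chr2:231461549-231461589, minus: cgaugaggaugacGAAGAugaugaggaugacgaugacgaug
RPL19, chr17:39203044-39203084, plus: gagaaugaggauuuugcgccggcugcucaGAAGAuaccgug
EEF2, chr19:3979364-3979404, minus: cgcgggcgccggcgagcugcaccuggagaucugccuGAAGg
EEF2, chr19:3983193-3983233, minus: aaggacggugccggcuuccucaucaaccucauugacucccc
ZNF503, chr10:75399750-75399790, minus: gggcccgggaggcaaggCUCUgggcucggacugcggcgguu
HSPA8, chr11:123058284-123058324, minus: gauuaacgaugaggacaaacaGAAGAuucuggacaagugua
SFPQ, chr1:35189040-35189080, minus: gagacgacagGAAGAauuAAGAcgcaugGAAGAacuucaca

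Sites of DDOST, SLC35A4, LSR, IGF2R and SHB are shown next, because these are the genes with more than 1 site labelled CDS of which no site overlapped an FL site.
DDOST, chr1:20654263-20654303, minus: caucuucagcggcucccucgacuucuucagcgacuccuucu
SLC35A4, chr5:140567815-140567855, plus: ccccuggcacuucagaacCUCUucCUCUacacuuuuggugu
SLC35A4, chr5:140567865-140567905, plus: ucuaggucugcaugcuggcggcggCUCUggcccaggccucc
LSR, chr19:35267136-35267176, plus: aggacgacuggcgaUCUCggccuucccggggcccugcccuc
LSR, chr19:35262570-35262610, plus: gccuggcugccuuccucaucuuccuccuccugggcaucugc
IGF2R, chr6:160084124-160084164, plus: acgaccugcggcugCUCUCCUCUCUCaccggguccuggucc
IGF2R, chr6:160024646-160024686, plus: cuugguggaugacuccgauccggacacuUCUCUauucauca
SHB, chr9:38068151-38068191, minus: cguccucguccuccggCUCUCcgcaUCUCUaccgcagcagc

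The tallest sites without an FL partner are given because they do not follow the pattern of the genes just listed, and hold few pyrimidine 4-mers.
RPLP2, chr11:810304-810344, plus: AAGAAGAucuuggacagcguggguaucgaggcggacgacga
RPSA, chr3:39411730-39411770, plus: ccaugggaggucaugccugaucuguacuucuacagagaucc
H3C2, chr6:26031777-26031817, minus: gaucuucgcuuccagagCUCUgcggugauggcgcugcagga
JUN, chr1:58782871-58782911, minus: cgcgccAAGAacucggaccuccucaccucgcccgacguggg
SRSF9, chr12:120469530-120469570, minus: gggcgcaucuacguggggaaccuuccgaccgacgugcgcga
The 4 tallest sites on PRRC2B, all overlapping a site of the full-length protein by 1 nt or more, hold a pyrimidine 4-mer in 3 cases and purine 4-mers in 1.
PRRC2B, chr9:131475359-131475399, plus: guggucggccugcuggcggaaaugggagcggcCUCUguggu
PRRC2B, chr9:131446528-131446568, plus: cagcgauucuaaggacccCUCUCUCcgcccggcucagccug
PRRC2B, chr9:131475659-131475699, plus: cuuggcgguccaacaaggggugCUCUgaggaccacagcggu
PRRC2B, chr9:131459225-131459265, plus: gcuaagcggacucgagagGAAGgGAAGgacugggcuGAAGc

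The label was checked against the annotation. Of the 168 sites, 163 had their middle inside the CDS of the representative transcript of their gene in GENCODE release 44. The sites on NOP58 and LCORL lay in introns of that transcript, and those on SPPL2B and EIF2B5 and 1 of those on SHB lay outside it. A further 9 sites had a middle of 25 nt that occurs more than once in the genome, up to 10 times for the histone gene H2BC18, so their reads could stem from a copy. This applied to HSPA8, RPSA, RPL24, RPL35, HSP90B1, ZRANB2, TMPO, NUS1 and H2BC18. At 4 positions the site was recorded under several genes, and 10 sites shared bases with a neighbouring site, 4 of them on PRRC2B.

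The first comparison asked how many coding-sequence sites of the fragment were also sites of the whole protein. Of the 168 sites, 94 overlapped an FL site (56.0%, 95% Wilson interval 48.4 to 63.2), and over all 571 RBD sites the share was 56.0%. Without PRRC2B, 65 of 139 sites did (46.8%, interval 38.7 to 55.0), against 53.6% of all RBD sites outside PRRC2B. The coding-sequence sites were therefore close to the background of the list in both counts. All 29 sites on PRRC2B overlapped an FL site. Intervals here and below cover counting error only, since sites on 1 mRNA are not independent.

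Peak height is the number of overlapping reads at a site after reads of identical sequence were removed. It was not scaled for sequencing depth or for the amount of the mRNA, which was not analysed here, so a tall site can be a strongly bound or an abundant message. Over the 168 sites the median height was 8 reads (quartiles 5 and 12, range 4 to 36). Sites that overlapped an FL site had a median of 10 reads, and those that did not had a median of 6 (quartiles 5 and 8, at most 19). On PRRC2B the median was 18 reads (quartiles 14 and 26), and the shared sites elsewhere had a median of 8 (quartiles 7 and 11).

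The share of sites with an FL partner rose with height outside PRRC2B. It was 10 of 43 sites with 4 or 5 reads (23.3%, interval 13.2 to 37.7) and 17 of 38 with 6 or 7 reads (44.7%). It was 21 of 35 sites with 8 to 10 reads (60.0%) and 17 of 23 with 11 reads or more (73.9%, interval 53.5 to 87.5). Sites near the lower limit of height were thus often in 1 list alone. The part that depth played in the overlap was not tested.

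**Figure D1:**
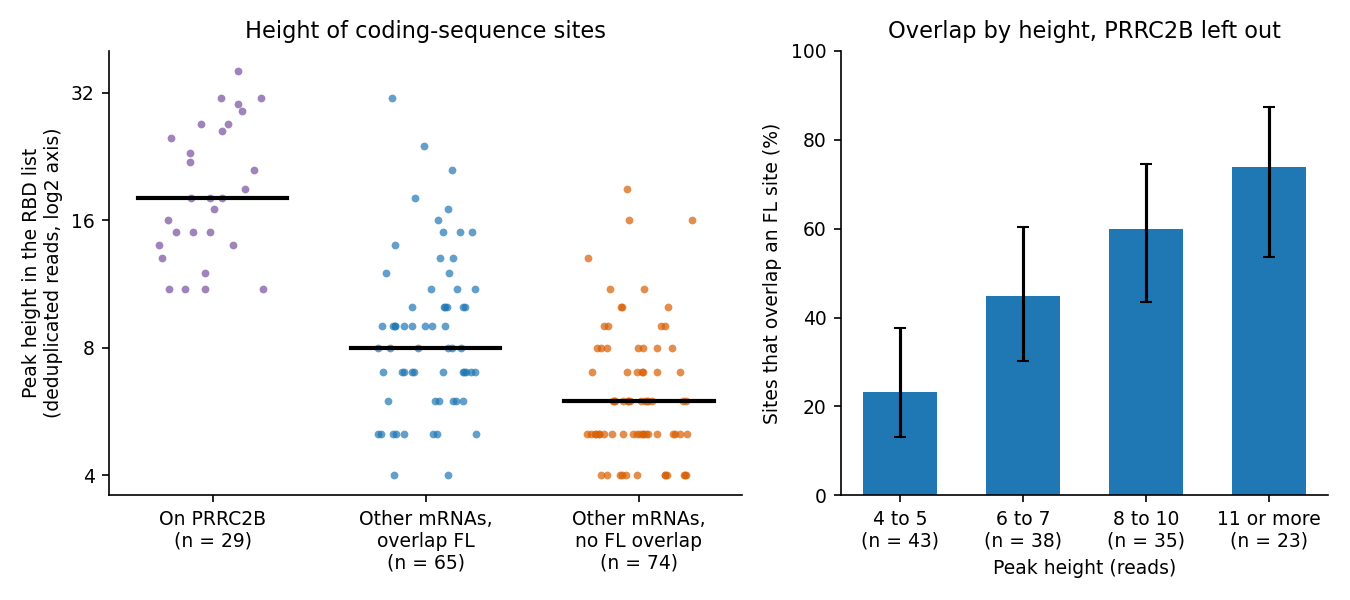
Left: peak height of each coding-sequence site in the RBD list (reads, log2 axis), 1 point a site, with the median of each group as a line. Right: share of sites outside PRRC2B that overlap an FL site by height, with 95% Wilson intervals. The medians are 18 reads on PRRC2B, 8 at other shared sites and 6 at sites without an FL partner, and the share rises from 23.3% to 73.9%.

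Most shared sites lay at the same place in both lists. Over the 94 sites the start differed from that of the FL partner by a median of 3.5 nt, 75 started within 10 nt of each other and 87 overlapped by 50 nt or more. The other 7 overlapped by less, down to 1 nt. The 94 sites had 91 distinct FL partners, and 88 of the 94 sites had a partner labelled CDS as well. Height was greater in the FL list at 65 sites, greater in the RBD list at 15 and equal at 14. Outside PRRC2B these counts were 37, 14 and 14, and the median ratio of FL to RBD height was 1.11 (quartiles 1 and 1.29). The number of reads in each library was not used here for scaling, so a ratio above 1 does not say which protein bound more.

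Sites with and without an FL partner differed in base sequence. Outside PRRC2B, CUCU or UCUC lay in the middle 41 nt of 48 of the 74 sites without a partner (64.9%, interval 53.5 to 74.8) and of 21 of the 65 shared sites (32.3%, interval 22.2 to 44.4). GAAG or AAGA lay in 15 of the 74 sites without a partner (20.3%, interval 12.7 to 30.8) and in 33 of the 65 shared sites (50.8%, interval 38.9 to 62.5). The intervals of the 2 groups did not overlap for either class. Sites such as those of IGF2R and SLC35A4, printed above, were of the first kind, and those of NCL and SFPQ were of the second.

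Coding sequence is by itself rich in purine 4-mers, so the sites were set beside windows of 41 nt tiled along the CDS of the same transcripts. For the transcripts of sites without a partner, 22.8% of windows held a pyrimidine 4-mer and 39.3% a purine 4-mer. The sites themselves thus held the pyrimidine class more often than their own coding sequences and the purine class less often. Sites, unlike windows, were kept around T-to-C conversions, and only the pyrimidine class contains U. The part of this in the comparison with windows was not tested. For the transcripts of shared sites, 21.1% of windows held a pyrimidine 4-mer and 44.8% a purine 4-mer. The lower limit of the pyrimidine interval at the shared sites, 22.2%, was just above the share in their windows, while their purine share of 50.8% had an interval that contained that of the windows.

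On PRRC2B itself, 17 of 29 sites held a pyrimidine 4-mer (58.6%, interval 40.7 to 74.5) and 7 a purine 4-mer (24.1%, interval 12.2 to 42.1). Windows along its coding sequence held them in 23.9% and 39.3%. All 29 sites were shared, so a split by overlap could not be examined there. A run of U alone, searched for as UUUU, was in 4.17% of the 168 sites, in 8.19% of windows along their coding sequences and in 8.58% of all RBD sites.

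The rest of the study gave the frame for these shares. Over all 571 RBD sites, 48.9% held a pyrimidine 4-mer and 24.5% a purine 4-mer in a window of the same length. RBD sites in 5′ UTRs held them in 66.7% and 8.77% of 57 sites, and those in 3′ UTRs in 71.3% and 3.45% of 87 sites. The coding-sequence sites without an FL partner were therefore near the UTR sites in their pyrimidine share. FL sites in coding sequences that overlapped no RBD site, 173 in number, held a pyrimidine 4-mer in 38.7% (interval 31.8 to 46.2) and a purine 4-mer in 42.2% (interval 35.1 to 49.6), so the sites found with the fragment alone and those found with the whole protein alone had intervals that did not overlap in either class.

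**Figure D2:**
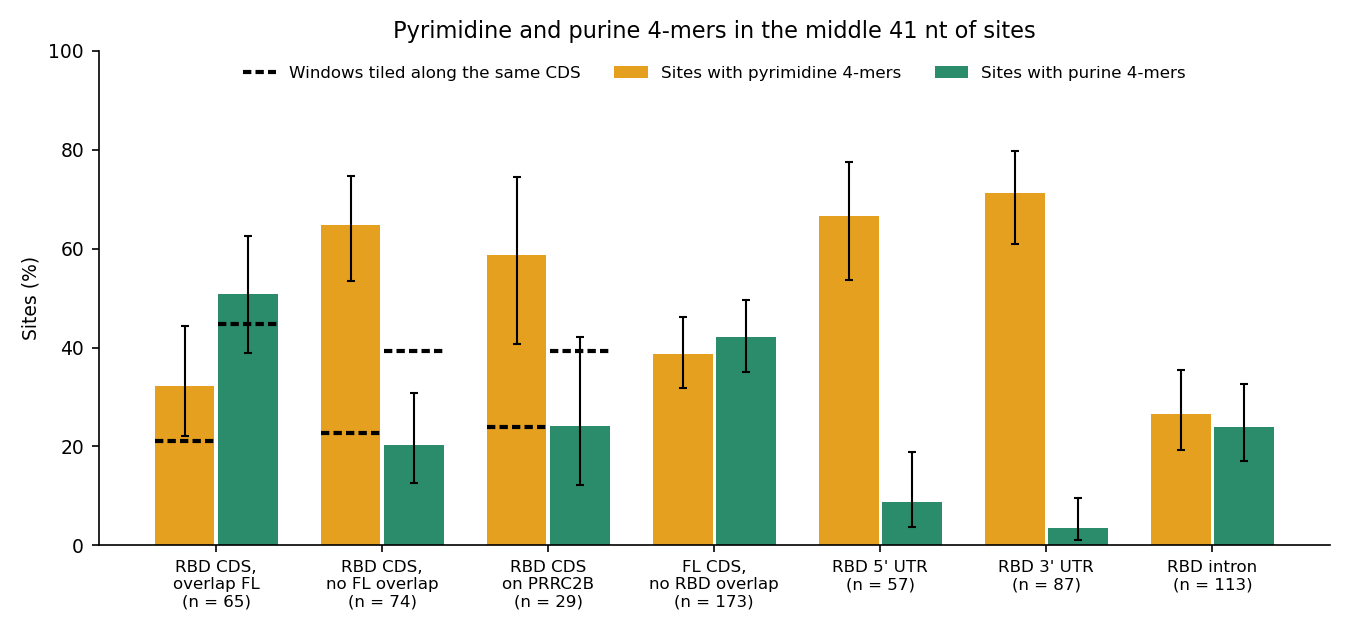
Share of sites whose middle 41 nt hold a pyrimidine 4-mer (orange) or a purine 4-mer (green), with 95% Wilson intervals, for coding-sequence (CDS) sites and other sites; the first pair of groups leaves out PRRC2B. Dashed lines are windows tiled along the CDS of the same transcripts. Sites without an FL partner stand at 64.9% and 20.3%, shared sites at 32.3% and 50.8%.

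The difference was examined at like heights, since shared sites were taller. Among sites of 6 or 7 reads, a pyrimidine 4-mer was in 3 of 17 shared sites and 14 of 21 sites without a partner, and a purine 4-mer was in 11 of 17 and 2 of 21. Among sites of 8 to 10 reads, the pyrimidine class was in 8 of 21 and 10 of 14 sites and the purine class in 9 of 21 and 3 of 14. These heights kept the direction seen in the whole set. At 4 or 5 reads the direction was not the same: the pyrimidine class was in 7 of 10 shared sites and 22 of 33 others, and the purine class in 1 of 10 and 8 of 33. At 11 reads or more only 6 sites had no partner, and 2 of them held each class, against 3 and 12 of 17 shared sites.

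The 2 classes also differed in where they lay along the 100 nt of a site. At sites without a partner, 79 of 154 pyrimidine matches (51.3%) fell in the middle 20 nt, and at shared sites 40 of 88 did (45.5%). Purine matches were spread along the site, with 15 of 89 (16.9%) in the middle 20 nt at sites without a partner and 58 of 258 (22.5%) at shared sites. The middle 20 nt are 20% of the length, so only the pyrimidine matches were gathered at the centre, in both groups. PRRC2B sites showed the same order, with 23 of 45 pyrimidine matches and 6 of 42 purine matches in the middle. The order was the same among sites whose 100 nt crossed no exon junction, where the middle 20 nt held 51 of 99 pyrimidine and 3 of 37 purine matches at 45 sites without a partner, and 30 of 66 and 34 of 154 at 44 shared sites. Sites were kept around T-to-C conversions, and only the pyrimidine 4-mers contain U, a difference whose part in this pattern was not tested.

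**Figure D3:**
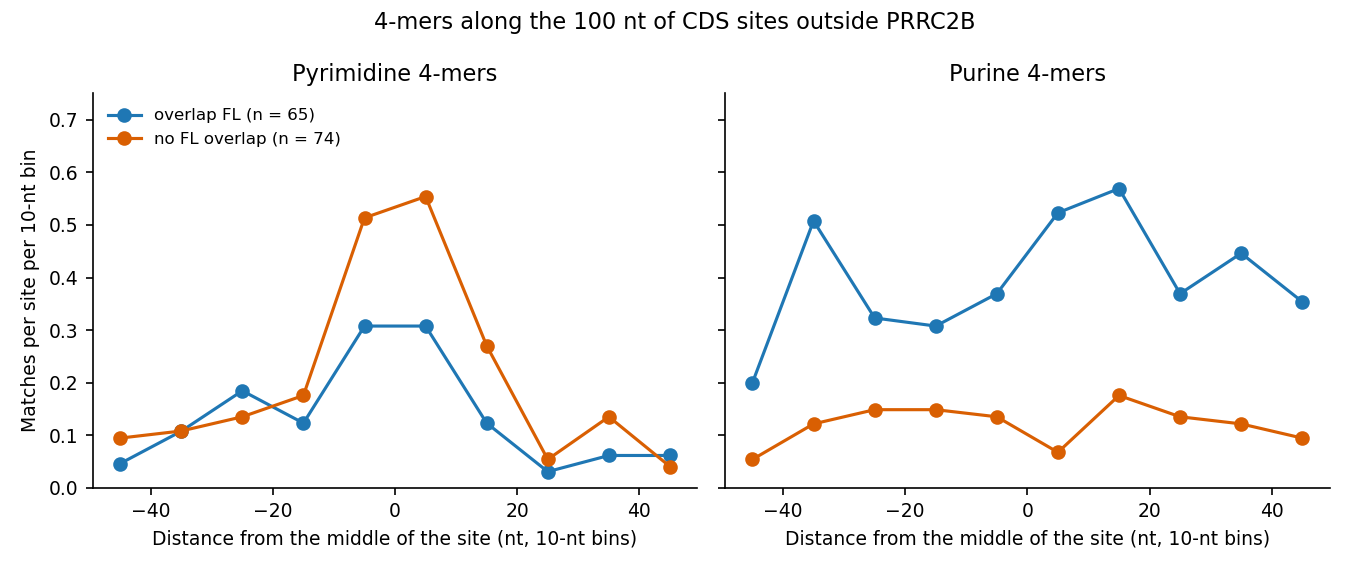
Matches to pyrimidine 4-mers (left) and purine 4-mers (right) per site in bins of 10 nt, against distance from the middle of the site, for coding-sequence sites outside PRRC2B with and without an FL partner. Pyrimidine matches peak within 10 nt of the middle in both groups, and purine matches are spread along the 100 nt and more numerous at shared sites.

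In base composition the same split was seen. C and U made up 51.5% of the middle 41 nt over the 163 placed sites and 46.8% of the coding sequences that held them, a mean difference of 4.70 percentage points (95% interval 2.47 to 6.93 across sites). At sites without a partner the difference was 10.7 points (interval 7.77 to 13.6), made of 8.38 points more C, 2.28 points more U, 7.20 points less A and 3.45 points less G. At shared sites outside PRRC2B it was -0.06 points (interval -3.74 to 3.63). On PRRC2B it was 0.44 points (interval -4.51 to 5.39). The excess of C and U was thus measured at sites found with the fragment alone. Among the 61 sites of 10 reads or more in the RBD list the difference was -0.28 points (interval -3.65 to 3.10). Of these 61, 29 lay on PRRC2B, 23 were shared sites elsewhere and 9 had no partner. Their mix thus differed from that of the whole set, and a change of the excess with height was not tested.

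The distribution of G differed within the site. Outside PRRC2B, G made up 22.9% and 22.3% of bases in the bins of 10 nt on either side of the middle and 25.8% to 30.1% in the other bins. At sites without a partner the middle bins held 21.4% and 19.3%, against 25.8% to 30.5% in the others. At shared sites they held 24.8% and 25.7%, and the other bins 24.9% to 30.5%. On PRRC2B they held 31.4% and 32.1%, so no dip was seen there. RNase T1 cuts after G and so shapes which pieces of RNA can be read, and its part in this dip was not tested.

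The windows were also read as codons. In 62 shared windows outside PRRC2B, codons for the acidic residues aspartate and glutamate made up 22.2% of 806 codons, against 14.5% in the whole coding sequences. The 3 windows of NCL, which lie in runs of such codons, were among the 62, and the share without them was not computed. In 68 windows without a partner they made up 8.26% of 884 codons, against 11.02%. Leucine codons made up 14.03% and serine codons 13.01% of codons in windows without a partner, against 9.66% and 8.58% in the whole coding sequences. Leucine codons were also above the whole coding sequences in the shared windows (11.3% against 8.60%), while serine codons were near them (7.82% against 7.41%). Lysine codons, made of purines, were below the whole coding sequences in both groups, with 5.58% against 8.12% in shared windows and 2.15% against 5.57% in the others.

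Along the coding sequence the sites were spread from end to end. The first 10% held 16 of the 163 placed sites (9.82%, interval 6.13 to 15.3), near the share of an even spread. Sites within 100 nt after the start codon numbered 16, beside 13.03 for sites spread evenly over these coding sequences. The stretch from 10 to 20% held 31 sites (19.0%), the most of any such stretch, and the last, from 90 to 100%, held 5 (3.07%, interval 1.32 to 6.98), the fewest. The order was the same outside PRRC2B, with 25 of 134 from 10 to 20% and 4 in the last stretch. Sites labelled both CDS and 3′ UTR, 77 in the RBD list, and those labelled both CDS and 5′ UTR, 34, are not among the 168, which lowers what could be counted at either end.

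**Figure D4:**
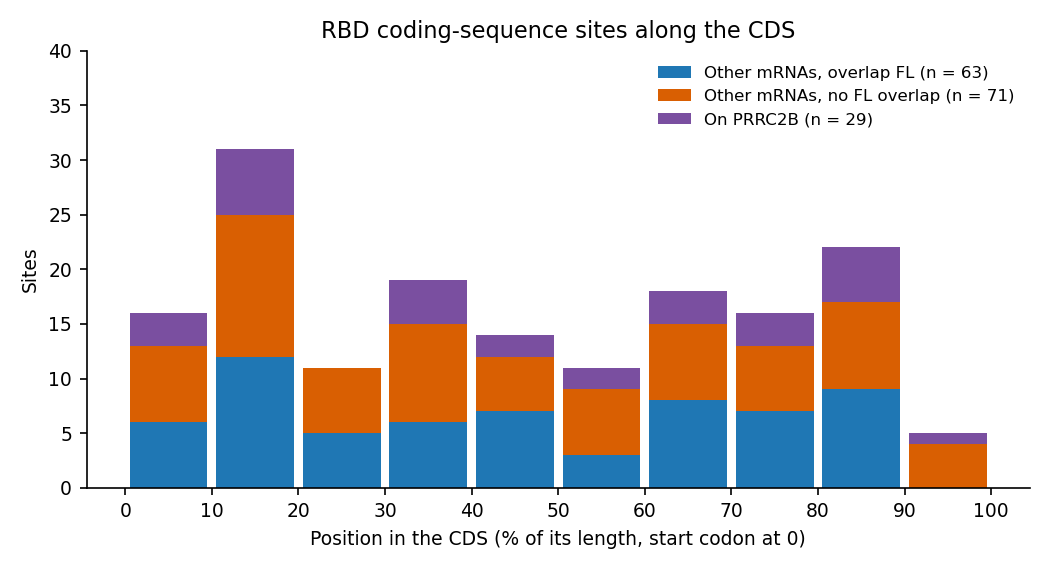
Number of coding-sequence sites of the RBD list in each 10% of the CDS (start codon at 0%), stacked by whether the site lies on PRRC2B and whether it overlaps an FL site. The stretch from 10 to 20% holds 31 sites and the last 5, and sites of all groups occur along most of the length.

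Shared sites and others had like positions: 9 of 92 shared sites and 7 of 71 others lay in the first 10%, and 18 and 13 lay from 10 to 20%. The middle of a site lay a median of 646 nt after the start codon, in coding sequences with a median length of 1806 nt. These medians count the coding sequence of PRRC2B once for each of its sites. Outside PRRC2B they were 538.5 nt and 1443 nt. The nearest exon junction was a median of 61 nt away, and 58 of 159 sites on transcripts with several exons lay under 50 nt from one. Outside PRRC2B the median was 65 nt, and 44 of 130 such sites lay under 50 nt from a junction. Windows were read from the genome, and 156 of the 168 windows of 41 nt lay wholly in a coding exon.

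PRRC2B mRNA held the most sites of any gene. Its coding sequence of 6690 nt encodes 2229 residues, and the 29 sites lay from 253 to 6529 nt after the start codon, with a largest gap of 772 nt. The tallest had 36 reads in the RBD list and 42 in the FL list, at 3249 nt (chr9:131475329-131475428, plus strand, hg38). It lay in the part of the message that encodes P2. All 29 sites had an FL partner, 28 distinct ones in all, and height was greater in the FL list at 28 sites and greater in the RBD list at 1.

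The plasmids differ in what they carry of this message. The FL plasmid carries the whole coding sequence, while the RBD plasmid carries only the part for P2, so sites of the RBD list outside that part cannot come from its plasmid. There were 11 such sites before the P2 part and 10 after it. The P2 part held 8 sites (3.56 per 1000 nt) and the rest 21 (4.73 per 1000 nt). Median height in the RBD list was 24.5 reads in the P2 part (quartiles 16.3 and 28) and 18 outside it (quartiles 14 and 22).

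In the FL list the median at the same sites was 30.5 reads in the P2 part and 26 outside it. The median ratio of FL to RBD height was 1.20 in the P2 part (range 1.06 to 1.75) and 1.37 outside it (range 0.966 to 2.27). The ranges overlapped over most of their length, and no replicate error is available for either. The lowest ratio in the P2 part came from a site that overlapped its FL partner by 5 nt. The highest outside it came from a site that did so by 21 nt. Reads from the plasmid and from the gene cannot be told apart in the P2 part of either list, nor outside that part in the FL list. Outside the P2 part, the ratio thus sets FL reads of either origin beside RBD reads that cannot come from the plasmid. The ratios in the 2 parts are therefore not like measures. How much of the height stems from each origin was not measured. The background model of the peak caller expected 0.5 reads at these sites in the RBD list and 0.7 in the FL list.

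**Figure D5:**
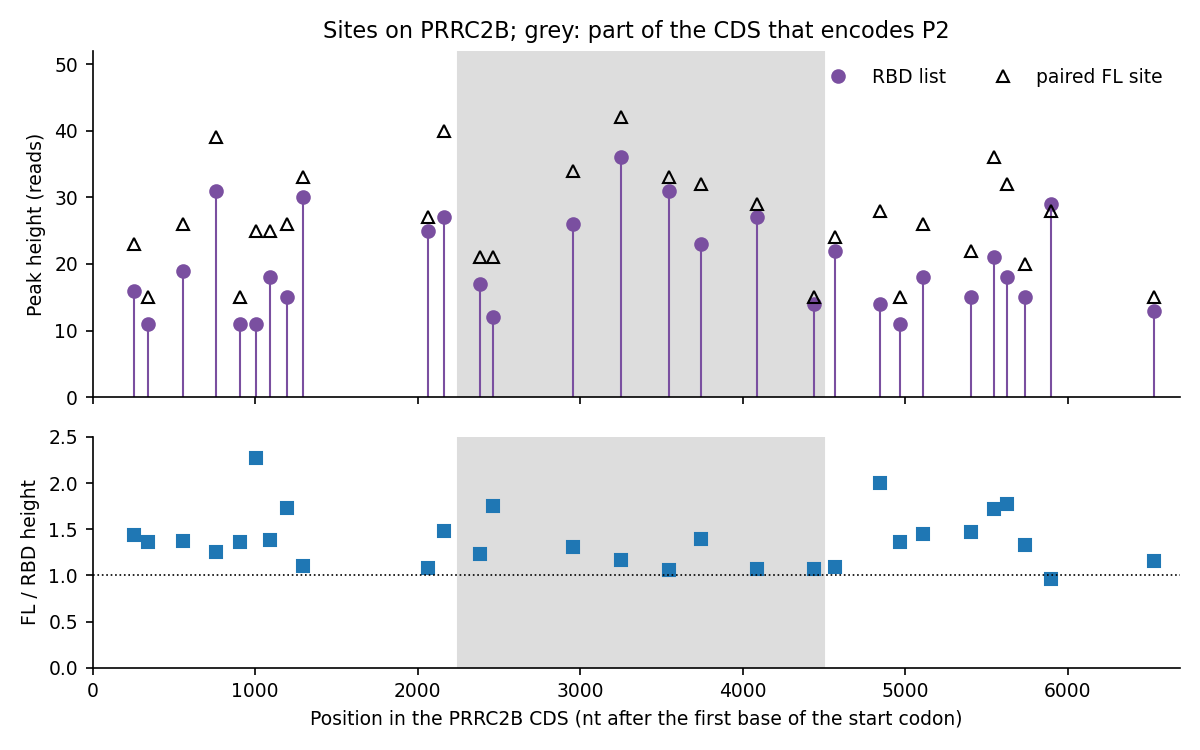
Top: peak height (reads) of the 29 sites along the PRRC2B coding sequence in the RBD list (circles) and of the paired FL sites (triangles). Bottom: ratio of FL to RBD height at each site, with a dotted line at 1; the grey area is the part that encodes P2. Sites occur inside and outside the grey area in both lists, and 28 of 29 ratios are above 1.

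Most mRNAs had a single site: 118 of 129 genes had 1, 9 had 2, NCL had 3 and PRRC2B had 29. Of the 10 genes outside PRRC2B with more than 1 site, 5 had all of their sites shared (ACTB, EEF2, NCL, PDE12 and SFPQ) and 5 had none shared (DDOST, IGF2R, LSR, SHB and SLC35A4). No such gene had sites of both kinds. The sites of PDE12, those of SLC35A4 and 2 of those of NCL share bases, and 1 of the SHB sites lay outside its representative transcript. The 10 genes are thus not 10 independent observations.

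NCL encodes nucleolin, an RNA-binding protein of the nucleolus with long acidic stretches. Its sites had 31, 21 and 13 reads in the RBD list and 27, 20 and 20 in the FL list. The sites of 21 and 13 reads share bases and have the same FL partner, so the value of 20 is a single FL peak. All 3 lay between 498 and 749 nt after the start codon, in runs of aspartate and glutamate codons, and each held a purine 4-mer. SFPQ, a splicing and paraspeckle factor, had sites of 15 and 14 reads, with 14 and 23 in the FL list. Both also held a purine 4-mer. The middle of the site of 15 reads lay 19 nt from an exon junction, so its window was not wholly in a coding exon. EEF2, the elongation factor that moves the ribosome along the message, had 18 and 16 reads, with 24 and 16 in the FL list.

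ACTB, which encodes cytoplasmic actin, had 11 and 10 reads, with 8 and 11 in the FL list, and neither site held a 4-mer of either class. PDE12, a phosphodiesterase that removes adenylate residues, had 7 and 6 reads, with 7 at both in the FL list. Its sites share bases and an FL partner, so they are not separate observations.

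The sites of the 5 genes without a shared site had between 4 and 11 reads. DDOST, a subunit of the complex that attaches sugar chains to new proteins in the endoplasmic reticulum (ER), had 10 and 7 reads. SLC35A4, a member of the solute carrier family of nucleotide sugar transporters, had 11 and 8 at sites that share bases. LSR, a lipoprotein receptor, had 8 and 6, IGF2R, the receptor for mannose 6-phosphate and insulin-like growth factor 2, had 5 and 5, and SHB, a signalling adaptor with an SH2 domain, had 4 and 4. The SHB site at chr9:37592382-37592481 lay outside the representative transcript, so only the other SHB site was placed in its coding sequence. Of these 10 sites, those of DDOST and SLC35A4 with 10 and 11 reads were the only ones to reach 10 reads.

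Gene groups were then counted over the protein-coding genes of the annotation, of which 129 of 19676 (0.656%) had a coding-sequence site. How much each mRNA was expressed was not analysed here, and abundant messages give more reads, so a group's share is a description and not a preference. The lists were drawn up with earlier results of these data known, and some name single genes that have a site here, such as ZRANB2 and NOP58. A group's share can thus lie above 0.656% through the choice of its members. The counts of each group can be read beside the 139 sites outside PRRC2B, of which 46.8% were shared, 49.6% held a pyrimidine 4-mer and 34.5% a purine 4-mer. Ribosomal proteins had a site in 9 of 88 genes (10.2%), and 5 of the 9 sites were shared. RPL19 had 24 reads in both lists, RPL8 had 17 and 19, and RPL38 had 10 and 11. RPLP2, an acidic protein of the ribosomal stalk, had 19 reads and no FL partner, as had RPSA, with 16. Only 1 of the 9 sites, on RPL24, held a pyrimidine 4-mer, and 6 held a purine 4-mer.

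Translation factors and poly(A)-binding proteins had a site in 5 of 83 genes, and 5 of the 6 sites were shared. After EEF2 the tallest was that of EIF2S2, the beta subunit of initiation factor eIF2, with 7 reads and 11 in the FL list. PABPC4, a cytoplasmic poly(A)-binding protein, had 6 reads and no FL partner. RNA-processing factors had a site in 17 of 142 genes (12.0%), and 8 of the 20 sites were shared, among them those of NCL and SFPQ. The splicing factors SRSF9 and SRSF2 had 11 and 10 reads without an FL partner.

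Chaperones had a site in 5 of 75 genes, 4 of the 5 sites were shared, and all 5 held a purine 4-mer and none a pyrimidine 4-mer. HSPA8, the constitutive heat shock protein of the cytosol, had 15 reads and 19 in the FL list, HSP90AB1 had 12 and 14, CCT2, a subunit of the chaperonin that folds actin and tubulin, had 8 and 13, and HSP90B1, the form of the ER, had 7 and 11. ER and secretory proteins had a site in 10 of 64 genes (15.6%), and 6 of their 11 sites were shared. In that group 7 sites held a pyrimidine 4-mer and 3 a purine 4-mer. SSR1, part of the translocon-associated complex, had 9 reads and 11 in the FL list, and EMC6, part of the complex that inserts proteins into the membrane, had 9 and no FL partner.

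Cytoskeletal proteins had a site in 3 of 33 genes, with VIM, an intermediate filament protein, at 12 reads and 16 in the FL list. DNA replication and repair proteins had a site in 5 of 35 genes, and 4 of 5 sites were shared. The nuclease gene APEX2 had 9 reads and 8 in the FL list. MCM7, a subunit of the replicative helicase, had 9 reads. Its site overlapped its FL partner, of 10 reads and labelled both CDS and 3′ UTR, by only 1 nt. Histones and high-mobility-group proteins had a site in 3 of 107 genes. The H3C2 site, of a histone H3 gene, had 16 reads and no FL partner, and HMGB2, a DNA-bending protein, had 11 reads and 16 in the FL list. In the PRRC2 family PRRC2C had 1 site, of 7 reads and 11 in the FL list, and PRRC2A had none in this set.

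The 70 genes on no list carried 75 sites, with a median height of 6 reads, and 27 of these sites were shared. Pyrimidine 4-mers were in 48 of the 75 and purine 4-mers in 15. JUN, a subunit of the AP-1 transcription factor, was the tallest of them without an FL partner, with 13 reads. ZNF503, a zinc finger transcriptional repressor, had 15 reads and 13 in the FL list.

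Of 17 mRNAs that the study names as bound or as unbound controls, 6 had coding-sequence sites of the fragment, 8 sites in all. All 8 were shared, beside 46.8% of the sites outside PRRC2B, but the study called an mRNA bound where sites of both proteins overlapped, so its choice of these mRNAs bears on that count, which is no independent evidence. These were ACTB, EEF2, HSP90AB1 and HSPA8, described above, with SERBP1 and BPTF. SERBP1, a ribosome-associated mRNA-binding protein, had 13 reads and 16 in the FL list. BPTF, a subunit of a chromatin remodelling complex, had 6 reads and 8 in the FL list, and both sites held a purine 4-mer. The paper places binding sites of SERBP1, BPTF and PPP2R1A in the CDS, and PPP2R1A had no site in this set.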

How the data were processed

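PAR-CLIP libraries of FL and RBD were compared, with 2 replicates each. Per the paper's methods, the authors trimmed reads, removed reads of identical sequence, aligned what remained to GRCh38 (hg38) by bowtie with up to 1 mismatch, and used the CLIP Tool Kit to call peaks, of which those around T-to-C conversions were kept. The submitters' processing notes name bcl2fastq 2.19.0, Bowtie 1.2.1.1, bedtools 2.30.0 and R 4.1.2. Peak height in reads, the signal used here, was deposited unscaled. The deposited peak name, a text column of no fixed unit, also gave the expected height and the authors' p-value, which reached 0.046 at most among these sites and stood at its limit of 1e-100 for 17. Library depth was not analysed here.

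Sites were placed on representative transcripts of GENCODE 44, which has the same build, by table name for 167 sites and by Entrez identifier for 1. All sites were 100 nt wide. The middle 41 nt were read from the genome. Shares have 95% Wilson intervals, and composition differences have intervals of the mean across sites. No test was run. The procedures were tested on simulated data. Software was Python 3.11.15 with numpy 2.4.6, pandas 2.3.3, scipy 1.17.1 and pysam 0.24.0.

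The sites, the gene lists and the 4-mers were chosen with earlier results of these data known. Genes were named by rule: PRRC2B, genes with more than 1 site, the 10 tallest shared sites and the 5 tallest others outside PRRC2B, up to 4 of each gene list and mRNAs the study names as bound or as controls. Values of RPL38, which is not among the 4 tallest of its list, were given beyond this rule. Sites of LCORL, TMPO and NUS1 were named after their values were seen, as were the genes of sequences shown beyond the tallest sites. RPL8 and sites whose window was not wholly in the CDS are shown without sequence. The sequence of 1 DDOST site is not reported here.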

Additional observations from a re-analysis of the deposited data

How the results depend on the processing

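The lists pool replicates, so leaving out each replicate in turn could not be run. No paired analysis was possible because the deposited values carry no replicate number. Of 110 alternative values for 16 results, 91 stayed within the interval of the main value or, for the number of sites, within 1.5 times of it. Taking every label that names CDS gave 281 sites, a limit of 10 reads or more applied to each list gave 61, and an authors' p of at most 0.001 gave 111. The overlap with FL was 80.3% at a height of 10 or more, 65.8% at the stricter p, 46.8% without PRRC2B and 46.5% with 1 site per gene. The median height of shared sites was 8 reads without PRRC2B and with 1 site per gene, and that of other sites was 7 at the stricter p.

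At a height of 10 or more the difference in C and U turned to -0.28 points, and that in G, -1.37 points in the main setting, turned to 1.47 points there and to 0.041 points at the stricter p. Of the 61 sites at that height, 52 overlapped an FL site in the main setting, so the mix of sites differed from that of the whole set. Over the whole 100 nt, 69.0% of sites held a pyrimidine 4-mer and 59.5% a purine 4-mer. By overlap outside PRRC2B, a split whose alternatives were chosen after seeing the data, these shares over 100 nt were 55.4% and 72.3% at shared sites and 78.4% and 48.6% at the others. With only windows wholly in coding exons, pyrimidine and purine shares were 33.9% and 51.6% at shared sites and 66.2% and 19.1% at the others. A longer window holds more matches by construction, and the cause of the other shifts was not tested. The part of depth in the overlap at low heights was not tested, and with 2 pooled lists no difference between constructs has a replicate check.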
